A study of Danio rerio with 20 samples.

Results

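The sarcomere gene families of zebrafish embryos, meaning myosin heavy and light chains, myosin-binding proteins, tropomyosins, troponins, alpha-actinins and the Z-disc protein Ldb3, were followed in 4 groups of embryos that had been exposed to blockers of hedgehog signalling or to vehicle. Members were taken by the start of the gene symbol (myh, smyhc, myl followed by a digit or p, tnnc, tnni, tnnt, tpm, actn, mybp, ldb3, tcap or ttn). Of 45 such genes on the array, 9 were left out: the slow muscle genes smyhc1, myl13, myl10, tnnc1b, tnni1c and tnni4b.2 and the heart genes myl4, myh7 and tnnc1a. The other 36, out of 14657 genes on the array, are the members. No probe matched a tcap or ttn symbol. The 9 genes were set apart with their behaviour under cyclopamine known, so a small number of changed members partly follows from that choice.

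The groups were zebrafish embryos kept from 0.5 to 24 h after fertilization in 10 µM cyclopamine, in 10 µM SANT-2, in 10 µM GANT-61, or in 0.1% ethanol as the vehicle control. The strain is not given in the sources used here. Each group had 5 independent replicates of 100 pooled embryos, with total RNA of each pool on 1 array, 20 arrays in all. Smoothened, the membrane protein that passes on the hedgehog signal, is the target of cyclopamine and of SANT-2. GANT-61 instead acts further down, on the Gli factors that carry the signal into the nucleus. Values are log2 signals relative to the 75th percentile of the same array. They can be compared between arrays for 1 probe, not between probes.

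A sarcomere is the contractile unit of striated muscle, in which thick filaments of myosin pull on thin filaments of actin that are anchored in the Z-disc. Tropomyosin and the troponins C, I and T lie on the thin filament and switch it on when calcium rises. In the zebrafish trunk, hedgehog signals from the notochord and floor plate direct the adaxial cells beside the notochord to become slow fibres, while the bulk of the somite becomes fast fibres, which use other paralogs of most of these proteins. Some family members serve heart, smooth muscle or non-muscle cells instead. The members were listed as 11 fast skeletal genes, 5 genes of striated muscle in general, 12 other slow or cardiac genes and 7 smooth muscle or non-muscle genes. These lists are approximate, and the sites of use were not checked in these embryos. mybpc3 and tpm1, listed under striated muscle in general, are known from the heart. The last member, tpmt.1, encodes thiopurine methyltransferase, a drug-metabolising enzyme that shares only the first letters of its symbol with tropomyosin.

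In all, 31 of the 36 members were bright enough to be tested, as were 11433 genes of the array. To be tested, a probe had to stand well above its background on 4 or more arrays of any 1 group of 5. myl2b and smyhc2 were well above background on 0 of the 20 arrays, mybpc1 and mybpha on 7 and tnni4b.3 on 10, and these 5 genes were not tested. The number of probes well above background per array ran between 10038 and 12610. Each of the 4 slides carried arrays of all 4 groups, and slide 2 was the dimmest: its 75th percentile of signal was 566 to 763, against 1126 to 2060 on the other slides. Of the 10 tested fast genes, 9 were well above background on all 20 arrays, and the exception was tnni2a.1. The embryos were measured whole, so fewer cells of a type and less RNA per cell cannot be told apart.

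Cyclopamine was compared with ethanol to ask how far the sarcomere families outside the left-out slow and heart genes changed when the pathway was blocked. In limma's moderated test 0 of the 31 tested members passed at an adjusted p under 0.05, where 0.875% of all tested genes passed. The 6 left-out slow genes all fell, with a median log2 change of -2.82 and a range of -3.02 to -2.33, while the 31 members had a median of -0.17 and the 10 fast genes a median of -0.20. The 6 had been set apart with this fall known, so the contrast with the members was partly fixed by that choice. Over all tested genes the median was 0.03. The largest member differences were in actn2b and mybpc3, a Z-disc and a thick filament gene, at -1.58 and -1.09. Of the 31 members 3 had an unadjusted p under 0.05, as did 616 of the 11433 tested genes.

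**Figure D1:**
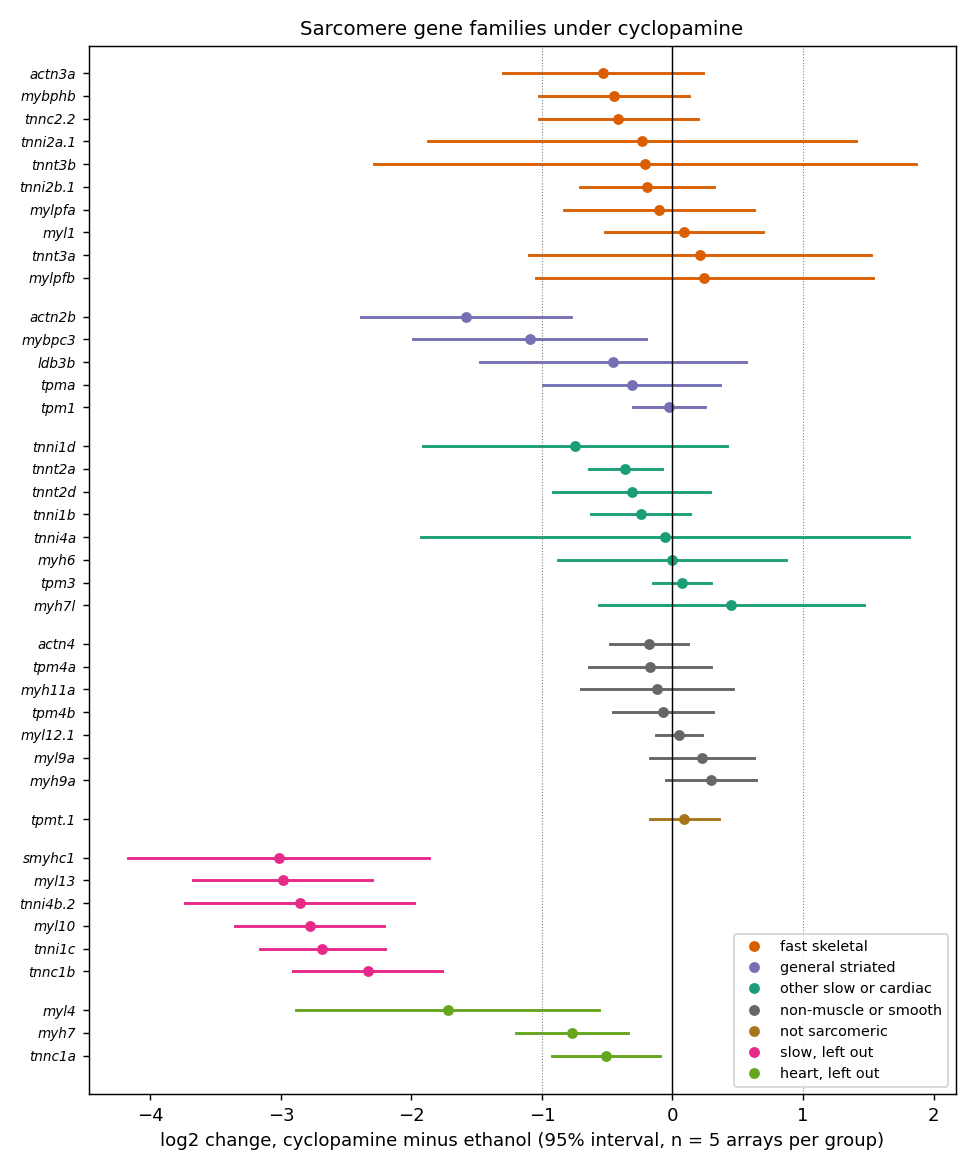
Log2 change of each tested member and of the 9 left-out genes, cyclopamine minus ethanol, with the 95% interval of limma's fit over 20 arrays. Dotted lines mark changes of -1 and 1. The fast genes lie between -0.53 and 0.24, actn2b and mybpc3 stand lowest among the members, and all 6 slow genes lie at -2.33 or lower.

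The widths of the intervals set what the comparison could show. For 19 of the 31 members the 95% interval excluded a fall of 1 on the log2 scale, a halving of the signal, and for 18 it lay wholly within 1 unit of 0. Among the fast genes the interval excluded such a fall in 3 of 10, and among smooth muscle and non-muscle genes in 7 of 7. The median distance between an estimate and the end of its interval was 0.75 for the fast genes, 0.60 for all members and 0.42 for all tested genes. With the replicate number of the array as a block, the interval of 8 of 10 fast genes excluded a fall of 1. That fit took 1 effect per replicate number over all groups. SANT-2 and GANT-61 did not meet the rule for pairing with ethanol by number, given below.

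The Z-disc anchors the thin filaments, and alpha-actinin is its main cross-linker. actn2b, one of the alpha-actinin genes of striated muscle, had log2 signals of -4.89, -4.92, -3.21, -4.46 and -4.64 on the cyclopamine arrays, -2.58, -2.47, -1.59, -2.34 and -3.31 with SANT-2, -2.97, -2.63, -1.79, -3.04 and -3.31 with GANT-61, and -2.88, -3.25, -1.75, -2.82 and -3.52 with ethanol. Of the cyclopamine arrays 4 lay below every other array, and the remaining one, replicate 3, lay within the range of the other groups, whose arrays overlapped each other. Against ethanol the log2 change was -1.58 ± 0.38 (SE, n = 5 per group; 95% interval -2.39 to -0.78), a signal 3.00-fold lower, with a limma adjusted p of 0.0650, so it did not pass. Within single slides the difference was -1.84, -1.47, -1.64 and -1.12. With slide as a block the change passed (limma adjusted p = 0.00189, where 2.19% of all tested genes passed), and with replicate number as a block too (limma adjusted p = 1.8e-05, where 2.27% passed). Over all 33 alternative settings the adjusted p ran between 1.8e-05 and 0.592.

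**Figure D2:**
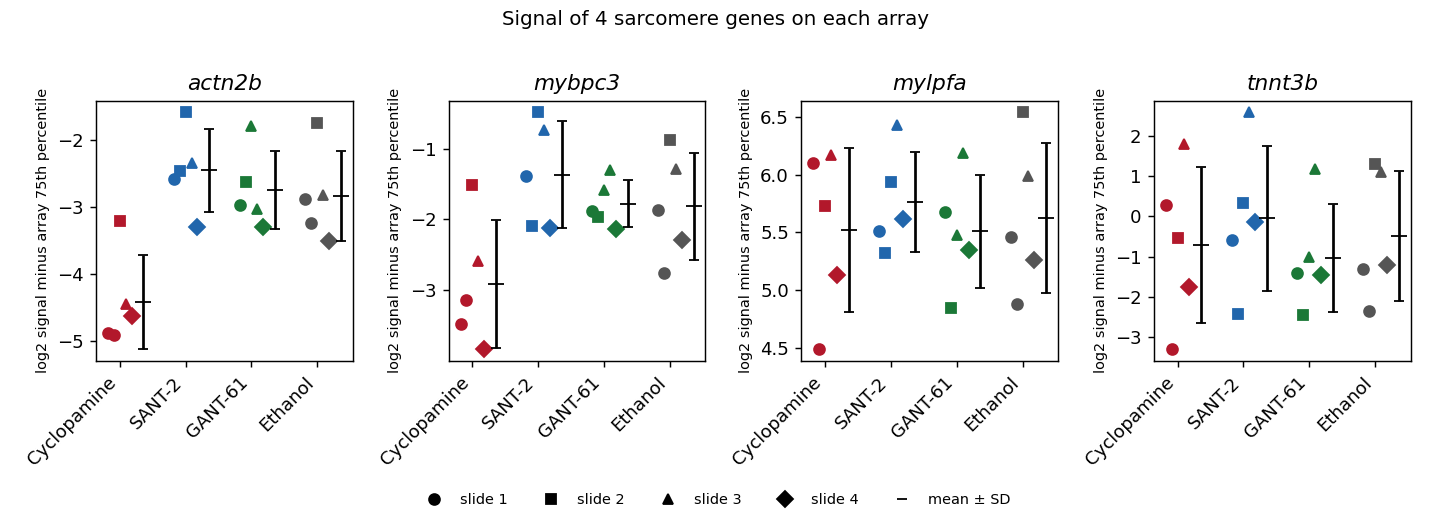
Log2 signal relative to the 75th percentile of the array for actn2b, mybpc3, mylpfa and tnnt3b, 1 point per array, with the shape giving the slide and the bar the mean ± SD (n = 5). The cyclopamine arrays of actn2b lie between -4.92 and -3.21, against -3.52 to -1.75 for ethanol, while those of mylpfa and tnnt3b spread across the range of the ethanol arrays.

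The other Z-disc genes differed less. The fast paralog actn3a averaged 2.62 ± 0.84 with cyclopamine and 3.15 ± 0.59 with ethanol (SD, n = 5 each), a change of -0.53 ± 0.37 (SE). The non-muscle paralog actn4, which cross-links actin in the cytoplasm, had log2 signals of 1.94, 1.72, 2.19, 1.45 and 1.90 with cyclopamine, 1.94, 1.96, 2.12, 1.61 and 1.71 with SANT-2, 1.98, 2.03, 1.81, 1.71 and 1.77 with GANT-61, and 2.00, 1.89, 2.37, 1.85 and 1.99 with ethanol. Its groups overlapped, and its interval under cyclopamine, -0.48 to 0.12, excluded a halving. ldb3b, whose product binds alpha-actinin at the Z-disc, had log2 signals of -1.32, -3.50, -2.92, -1.17 and -2.59 with cyclopamine, -1.99, -3.14, -2.22, -0.82 and -1.81 with SANT-2, -1.83, -3.23, -2.24, -1.19 and -2.82 with GANT-61, and -1.89, -2.56, -1.51, -1.08 and -2.20 with ethanol. In each group replicate 2 of ldb3b was the lowest array and replicate 4 the highest. Its change under cyclopamine was -0.45 with an interval of -1.47 to 0.57.

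Myosin-binding protein C and its relatives lie along the thick filament and tune the reach of the myosin heads. mybpc3, the form known in mammals from the heart, had log2 signals of -3.48, -3.14, -1.52, -2.59 and -3.83 with cyclopamine, -1.39, -2.10, -0.49, -0.74 and -2.12 with SANT-2, -1.88, -1.97, -1.59, -1.30 and -2.14 with GANT-61, and -1.87, -2.76, -0.88, -1.29 and -2.29 with ethanol. The cyclopamine and ethanol arrays overlapped, yet each cyclopamine array lay below the ethanol array of the same number, by 0.37 to 1.61. In all 5 such pairs 6 of the 31 members were lower with cyclopamine (actn2b, actn4, mybpc3, mybphb, tnnt2a and tnnt2d), while 8.6% of all genes with a value on every array were. The change of mybpc3 was -1.09 ± 0.43 (SE; 95% interval -1.98 to -0.20; limma adjusted p = 0.610), and -0.99, -0.64, -1.30 and -1.54 within single slides. It passed with replicate number as a block (limma adjusted p = 0.0124) and not with slide as a block (limma adjusted p = 0.0997). Over all 33 settings its adjusted p ran between 0.0124 and 1.00.

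mybphb, a myosin-binding protein H of fast fibres, had log2 signals of 2.76, 2.11, 3.26, 3.09 and 2.29 with cyclopamine, 3.09, 3.26, 3.53, 3.57 and 2.86 with SANT-2, 2.93, 2.83, 3.13, 3.45 and 2.63 with GANT-61, and 2.93, 2.69, 4.14, 3.36 and 2.64 with ethanol. It differed by -0.45 ± 0.27 (SE) under cyclopamine, and the groups overlapped.

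Myosin heavy chains form the motor of the thick filament, and the fast heavy chains of the trunk had no probe among the members. myh7l, a relative of the ventricular heavy chain, had log2 signals of -4.75, -5.33, -3.23, -4.48 and -4.62 with cyclopamine, -5.32, -3.92, -3.83, -4.10 and -4.43 with SANT-2, -4.31, -3.81, -4.62, -4.06 and -3.76 with GANT-61, and -4.67, -6.68, -3.19, -4.71 and -5.40 with ethanol. Ethanol replicate 2 was the lowest array, the groups overlapped, and 1 ethanol array was not well above background. myh7l lies next to the left-out heart gene myh7, for which the change under cyclopamine was -0.77 ± 0.20 (SE), while myh7l differed by 0.45 ± 0.48. Of the 3 left-out heart genes 0 passed, at -0.77 for myh7, -1.72 ± 0.55 for myl4 and -0.51 ± 0.20 for tnnc1a (SE). With slide as a block 3 of 3 fell (limma adjusted p between 0.0108 and 0.0450), where 2.19% of all tested genes passed. With replicate number as a block myh7 and myl4 fell (limma adjusted p = 0.00602 and 0.0125), where 2.27% passed. myh6, the atrial heavy chain of zebrafish, differed by -0.0046 ± 0.42 (SE) under cyclopamine.

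The remaining heavy chains belong to cells other than striated muscle. myh9a, a non-muscle myosin, had log2 signals of 3.05, 3.02, 3.44, 3.06 and 2.78 with cyclopamine, 3.00, 2.45, 3.30, 2.65 and 2.53 with SANT-2, 2.91, 3.17, 2.83, 2.94 and 2.48 with GANT-61, and 2.80, 2.82, 2.75, 2.95 and 2.56 with ethanol. All groups overlapped, and the interval of the change under cyclopamine was -0.05 to 0.64. The smooth muscle heavy chain myh11a differed by -0.12 ± 0.28 (SE).

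The light chains bind the neck of the myosin head. The fast light chains myl1, mylpfa and mylpfb differed by 0.09 ± 0.29, -0.10 ± 0.35 and 0.24 ± 0.62 (SE) under cyclopamine, against falls by 2.78 and 2.99 in the left-out slow light chains myl10 and myl13. myl10 and myl13 were set apart with their falls known. mylpfa, the main regulatory light chain of fast fibres, averaged 5.52 ± 0.71 with cyclopamine and 5.62 ± 0.65 with ethanol (SD, n = 5 each). myl9a, a regulatory light chain of smooth muscle and non-muscle cells, had log2 signals of -2.11, -2.83, -2.13, -2.04 and -2.38 with cyclopamine, -2.40, -2.76, -2.12, -1.82 and -2.32 with SANT-2, -2.23, -2.72, -2.21, -1.97 and -2.47 with GANT-61, and -2.54, -2.89, -2.48, -2.19 and -2.51 with ethanol. Each group overlapped ethanol, but on every treated array the signal lay above that of the ethanol array of the same number, as it did for 1385 of 11371 genes with cyclopamine, 5.55% with SANT-2 and 8.2% with GANT-61. The changes of 0.22, 0.24 and 0.20 did not pass. All 3 comparisons used the same ethanol arrays, and SANT-2 and GANT-61 did not meet the rule for pairing with ethanol by number, given below.

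On the thin filament, 0 of the 5 tested tropomyosin genes passed under cyclopamine. tpma, the main tropomyosin of trunk muscle, had log2 signals of 4.16, 2.66, 4.03, 4.38 and 3.25 with cyclopamine, 3.68, 3.58, 4.29, 4.73 and 3.98 with SANT-2, 3.79, 3.37, 3.68, 4.47 and 3.51 with GANT-61, and 3.79, 3.45, 4.68, 4.39 and 3.73 with ethanol. The groups overlapped, with a change under cyclopamine of -0.31 ± 0.32 (SE; 95% interval -0.99 to 0.37). tpm1, known for its role in the heart, had log2 signals of -2.25, -2.59, -2.98, -2.28 and -2.41 with cyclopamine, -2.47, -2.51, -2.50, -2.24 and -2.20 with SANT-2, -2.52, -2.89, -2.72, -2.79 and -2.71 with GANT-61, and -2.55, -2.41, -2.63, -2.49 and -2.29 with ethanol. The arrays of tpm1 under each compound overlapped those of ethanol, but all 5 SANT-2 arrays lay, by a small gap, above all 5 GANT-61 arrays. For tpm1, tpm3, tpm4a and tpm4b the interval under cyclopamine excluded a halving, as it did for tpma.

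Troponin C binds the calcium that starts contraction. tnnc2.2, a fast form, had log2 signals of 3.96, 2.76, 3.51, 4.49 and 3.42 with cyclopamine, 3.90, 3.65, 4.29, 4.92 and 4.18 with SANT-2, 4.16, 3.50, 4.22, 4.67 and 4.02 with GANT-61, and 3.92, 3.56, 4.20, 4.47 and 4.05 with ethanol. The groups overlapped and the change under cyclopamine was -0.41 ± 0.29 (SE), against -2.33 ± 0.27 for the left-out slow form tnnc1b (limma adjusted p = 4.08e-05). tnnc1b was set apart with its fall known, so the contrast is no test of fast against slow forms.

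Troponin I holds the thin filament off at rest. The fast gene tnni2b.1 differed by -0.19 ± 0.24 (SE) under cyclopamine, with an interval that excluded a halving, and the left-out slow gene tnni1c by -2.68 ± 0.23 (limma adjusted p = 7.47e-07). tnni1c too was set apart with its fall known. tnni1b, used in slow fibres and heart, had log2 signals of -1.01, -1.63, -1.55, -1.18 and -1.27 with cyclopamine, -1.33, -1.25, -1.54, -0.72 and -0.77 with SANT-2, -1.16, -1.82, -1.69, -1.37 and -1.47 with GANT-61, and -0.91, -0.98, -1.49, -1.18 and -0.86 with ethanol. Every group overlapped ethanol. The remaining troponin I genes were dim.

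tnni2a.1 had log2 signals of -8.90, -7.74, -4.25, -6.02 and -7.90 with cyclopamine, -6.28, -5.24, -4.59, -5.37 and -7.42 with SANT-2, -6.45, -4.65, -5.01, -5.58 and -7.28 with GANT-61, and -6.92, -7.80, -4.81, -6.63 and -7.46 with ethanol. It was well above background on 9 of the 20 arrays: 1 with cyclopamine, 4 with SANT-2, 3 with GANT-61 and 1 with ethanol. It was thus tested only through the SANT-2 group. In each group its highest array lay on slide 2, the dimmest slide. tnni1d had log2 signals of -4.51, -7.72, -5.43, -6.57 and -6.53 with cyclopamine, -4.80, -5.64, -4.82, -4.06 and -4.94 with SANT-2, -4.15, -5.46, -6.08, -4.30 and -6.53 with GANT-61, and -5.25, -6.70, -4.52, -5.19 and -5.37 with ethanol. It was well above background on 1 cyclopamine array and on 4 arrays of each other group, the signals overlapped, and the change of -0.75 ± 0.56 (SE) did not pass.

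Troponin T ties the troponin complex to tropomyosin. tnnt2a, the cardiac form that the embryonic heart needs to beat, had log2 signals of 0.24, -0.12, 0.00, -0.06 and -0.27 with cyclopamine, 0.34, 0.15, 0.19, 0.28 and 0.15 with SANT-2, 0.59, -0.06, 0.22, 0.25 and -0.16 with GANT-61, and 0.56, 0.39, 0.14, 0.25 and 0.25 with ethanol. Only cyclopamine replicate 1 lay within the range of the ethanol arrays. The change was -0.36 ± 0.13 (SE; 95% interval -0.64 to -0.08; limma adjusted p = 0.524), and with replicate number as a block its adjusted p was 0.0523. The fast genes tnnt3a and tnnt3b, at 0.21 ± 0.62 and -0.21 ± 0.99 (SE), had the widest intervals among the bright members.

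Under SANT-2 0 of the 31 tested members passed against ethanol, and 0% of all tested genes did. The 6 left-out slow genes did not pass either, with a median log2 change of 0.12 and a range of 0.05 to 0.25. 0 members and 130 genes had an unadjusted p under 0.05. The median member change was 0.11, with 25 members above 0 and 6 below, and over all tested genes the median was 0.04, with 6868 above 0. Within single slides the median member difference was 0.23 on slide 1, -0.33 on slide 2, 0.38 on slide 3 and 0.16 on slide 4. Slide 2 thus went the other way. Since the fast genes varied together from array to array, the signs of members are not all separate observations. actn2b, mybpc3, myh6, myl9a and tnni2a.1 were higher than ethanol in all 5 same-numbered pairs of arrays, as were 5.55% of all genes with a value on every array. tnni2a.1 met the rule for testing only through SANT-2, with 4 arrays well above background against 1 with ethanol. Its higher signal with SANT-2 thus partly follows from that rule. SANT-2 and ethanol did not meet the rule for pairing by number given below (lowest r -0.01). For actn2b the change was 0.39 ± 0.38 and for mybpc3 0.45 ± 0.43 (SE), and the interval excluded a fall of 1 in 27 of 31 members.

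Under GANT-61 0 of the 31 tested members passed, against 0.157% of all tested genes. The 6 left-out slow genes did not pass either, with a median log2 change of -0.11 and a range of -0.46 to 0.35. 1 member, tnni1b at -0.42 ± 0.18 (SE; limma adjusted p = 0.768), and 718 genes had an unadjusted p under 0.05. The median member change was -0.13 and that of all tested genes 0.06, with 19 members and 4512 of the 11433 tested genes below 0. With slide as a block 24 members lay below 0, as did 4548 of the 11433 tested genes. Within single slides the median member difference was 0.17 on slide 1, -0.66 on slide 2, -0.15 on slide 3 and -0.16 on slide 4. Slide 1 thus went the other way. The fast genes varied together from array to array, so the signs of members are not all separate observations. The arrays of tpmt.1, the member that is no sarcomere gene, lay below those of ethanol without overlap, but barely. Its highest GANT-61 array was at -1.90135 and its lowest ethanol array at -1.89999. The arrays of 1.54% of all tested genes failed to overlap in either direction. tpmt.1 differed by -0.24 ± 0.13 (SE; limma adjusted p = 0.811). No member's arrays failed to overlap those of ethanol under cyclopamine or SANT-2, where the shares of all tested genes were 1.83% and 0.122%.

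The compounds were also compared with each other at the same dose and time, over 3 pairs of compounds. Between cyclopamine and SANT-2, 1 of 31 members passed, against 0.752% of all tested genes: actn2b was lower with cyclopamine by 1.97 on the log2 scale (SE 0.38; 95% interval -2.77 to -1.16; limma adjusted p = 0.0121), a signal 3.91-fold lower. Between cyclopamine and GANT-61, 1 of 31 members passed, against 1.82% of all tested genes, again actn2b, at -1.68 ± 0.38 (SE; 95% interval -2.48 to -0.87; limma adjusted p = 0.0242). All 6 left-out slow genes passed as lower with cyclopamine in both comparisons, with median differences of -2.97 from SANT-2 and -2.71 from GANT-61. They had been set apart with their behaviour under cyclopamine known. Of 24 sarcomere genes outside the families, 6 and 5 passed as lower. For actn2b each cyclopamine array lay below the SANT-2 and the GANT-61 array of the same number, by 1.33 to 2.45, and 6.52% and 8.18% of all genes were lower with cyclopamine in all 5 such pairs. The call against GANT-61 was lost on leaving out cyclopamine 1, 2, 4 or 5 or GANT-61 2 or 3 (changes of -1.67 to -1.44). Both calls were lost with the same changes, -1.97 and -1.68, when only the arrays of the 2 groups entered the fit (limma adjusted p = 0.0690 and 0.0636). They were also lost, with smaller changes of -1.27 and -1.07, when the background was modelled from the negative control spots (limma adjusted p = 0.121 and 0.174). That setting also added an offset of 50 to every corrected signal, and the modelling and the offset were not tested apart. Over all 33 settings the adjusted p ran between 1.56e-06 and 0.121 against SANT-2 and between 7.79e-06 and 0.174 against GANT-61.

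With slide as a block, mybpc3 passed beside actn2b between cyclopamine and SANT-2, where 1.57% of all tested genes passed. With replicate number as a block, 3 members passed between cyclopamine and SANT-2 (actn2b, mybpc3 and tnnc2.2), where 1.78% of all tested genes passed, and 4 between cyclopamine and GANT-61 (actn2b, mybpc3, tnnc2.2 and myh6), where 5.63% passed. mybpc3 was lower with cyclopamine by 1.54 and by 1.14 on the log2 scale (limma adjusted p = 0.000673 and 0.00524), and tnnc2.2 by 0.56 and 0.49 (limma adjusted p = 0.0320 and 0.0338). myh6 was higher with cyclopamine than with GANT-61, by 0.51 (limma adjusted p = 0.0315).

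Between SANT-2 and GANT-61, 0 of 31 members passed, against 0.262% of all tested genes. 3 members and 428 genes had an unadjusted p under 0.05. The median member difference was 0.27 and that of all tested genes -0.02, and 26 members, among them all 10 fast genes, had a difference above 0, as did 5261 of the 11433 tested genes. With slide as a block the counts were 24 members, 9 fast genes and 4753 of the 11433 tested genes. The fast genes varied together from array to array, so their signs are not separate observations. The SANT-2 arrays of tpm1 and tpmt.1 lay above those of GANT-61 without overlap, as the arrays of 1.33% of all tested genes did in either direction. The gaps were small. The lowest SANT-2 and highest GANT-61 arrays were at -2.507 and -2.515 for tpm1, and at -1.875 and -1.901 for tpmt.1. In all 5 same-numbered pairs 11 of the 31 members were higher with SANT-2, while 5.82% of all genes were. myh6 passed with replicate number as a block, at 0.81 ± 0.13 (SE; limma adjusted p = 0.00513, where 1.05% of all tested genes passed), with log2 signals of -3.11, -4.26, -2.86, -2.47 and -4.02 with SANT-2 and -3.95, -4.92, -3.90, -3.38 and -4.61 with GANT-61. The groups overlapped, and each SANT-2 array was above its GANT-61 counterpart by 0.60 to 1.04.

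The fast genes were among several lists, of muscle and of other tissues, that varied more between arrays of a group than most genes did. Their pooled within-group SD had a median of 0.60 on the log2 scale and ran between 0.40 and 1.69, and all 10 lay above the median of all tested genes, 0.32. The median was 0.65 for general striated genes, 0.59 for other slow or cardiac genes, 0.29 for smooth muscle and non-muscle genes, 0.50 for the left-out slow genes and 0.62 for the genes of calcium handling and energy supply. For the epidermal, neuronal and erythroid markers described below it was 0.40, 0.43 and 0.38. tnnt3b, a fast troponin T, had log2 signals of 0.27, -3.30, -0.55, 1.79 and -1.75 with cyclopamine, -0.60, -2.44, 0.34, 2.58 and -0.15 with SANT-2, -1.42, -2.45, -1.02, 1.17 and -1.46 with GANT-61, and -1.32, -2.35, 1.302, 1.09 and -1.21 with ethanol. Replicate 2 was its lowest array in all 4 groups, and replicate 4 its highest in the 3 treated groups.

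**Figure D3:**
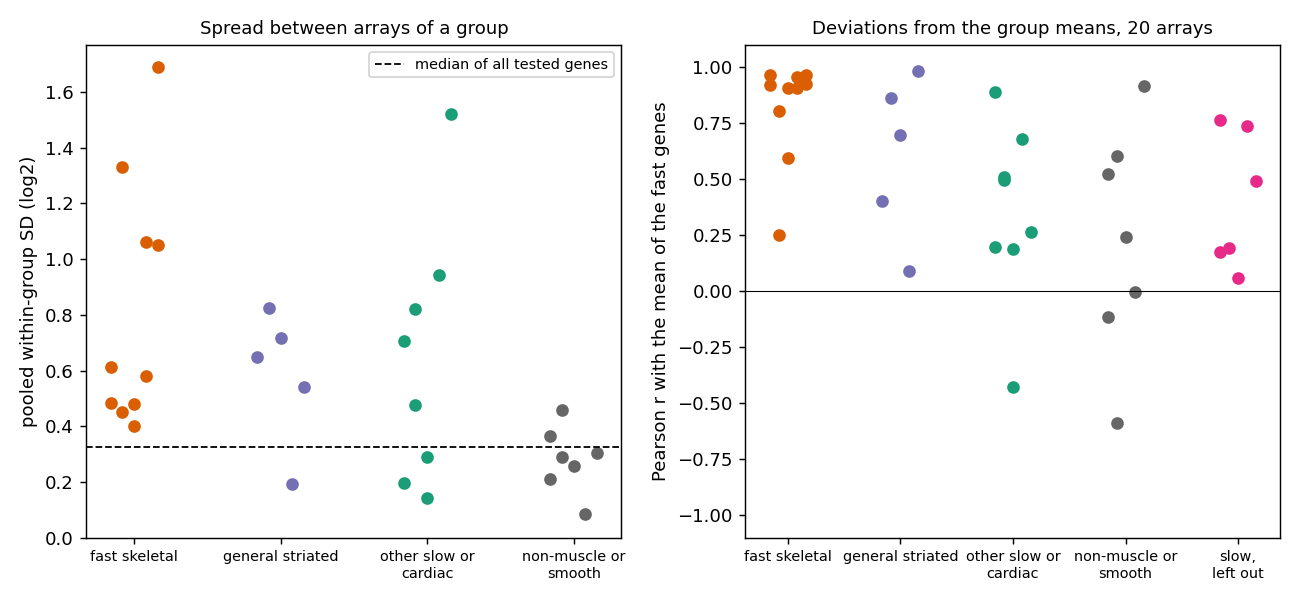
Left, pooled within-group SD of each tested member by class, with a dashed line at the median of all tested genes (0.32). Right, Pearson r over 20 arrays between a gene's deviations from its group means and the mean deviation of the other tested fast genes. Fast genes lie above the line, 8 of the 10 have an r above 0.80, and the left-out slow genes range between 0.06 and 0.76.

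After group means were removed, the fast genes moved up and down in common, tnni2a.1 least (r = 0.25 with the mean of the others). The median Pearson r of these deviations over the 45 pairs of fast genes was 0.84 across the 20 arrays, which share slides, scaling and embryo pools, and 0.90 with slide means removed too. The same median was 0.36 for general striated genes, 0.12 for other slow or cardiac genes, 0.15 for smooth muscle and non-muscle genes and 0.76 for the left-out slow genes. It was 0.68 for the genes of calcium handling and energy supply and 0.50 for the left-out heart genes. No such median was computed for all tested genes. Outside the fast class, tpma followed the mean of the fast genes most closely (r = 0.98), then myl9a (0.92), myh6 (0.89) and ldb3b (0.86). Of the left-out slow genes, myl10, smyhc1 and myl13 had an r of 0.06, 0.17 and 0.19 with the same mean, and tnni1c, tnnc1b and tnni4b.2 of 0.49, 0.74 and 0.76. For actn2b it was 0.40.

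**Figure D4:**
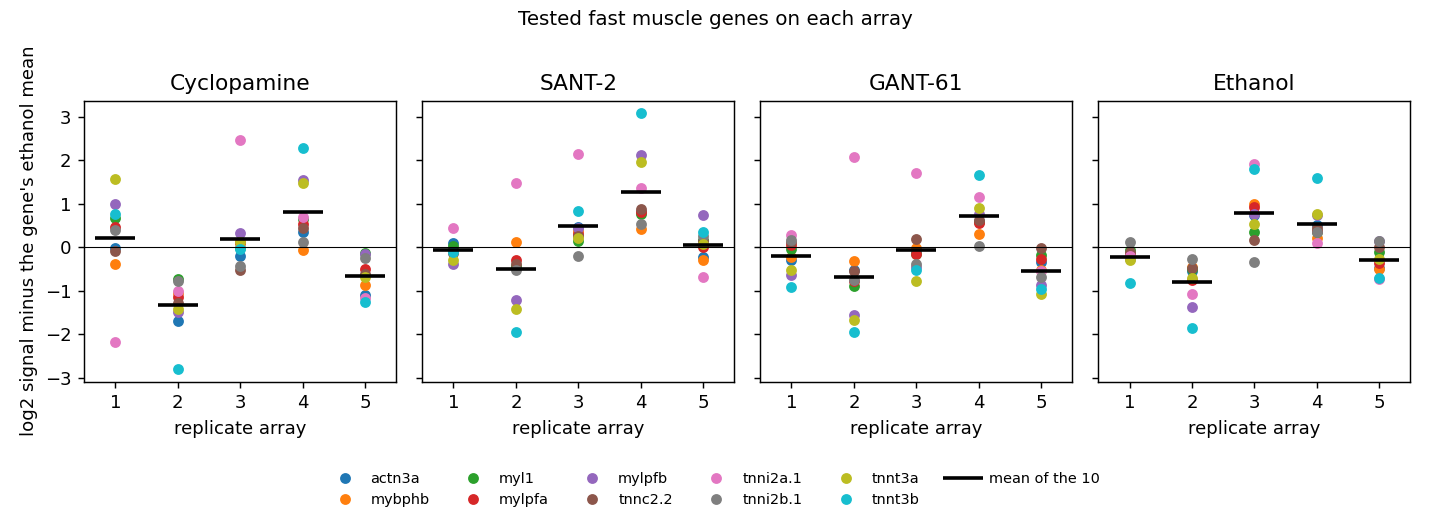
Log2 signal of the 10 tested fast genes on each array minus the gene's ethanol mean, with a bar at the mean of the 10. Most of the genes lie on the same side of 0 on replicates 2 and 4, with tnni2a.1 apart on several arrays: the mean is lowest on replicate 2 in every group and highest on replicate 4 in the cyclopamine, SANT-2 and GANT-61 groups.

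The shifts followed the replicate number across groups for replicates 2 and 4 and not for replicate 1. On replicate 4, all 10 tested fast genes lay above their own group mean in each of the 4 groups. The replicate 4 arrays all lay on slide 3, with GANT-61 3 the only other array there, and the replicate 5 arrays made up slide 4. For these numbers replicate and slide largely coincided. The replicate 2 arrays lay on slides 1 and 2. On replicate 2 the number above the group mean was 0 with cyclopamine, 1 with SANT-2, 1 with GANT-61 and 0 with ethanol. On replicate 1 it was 9 with cyclopamine, 0 with SANT-2, 5 with GANT-61 and 1 with ethanol. On replicate 3 it was 6 with cyclopamine, 9 with SANT-2, 6 with GANT-61 and 9 with ethanol, and on replicate 5 it was 0 with cyclopamine, 3 with SANT-2, 0 with GANT-61 and 3 with ethanol. Averaged over the 10 genes, the deviation from the ethanol mean was 0.22, -1.34, 0.19, 0.81 and -0.67 on the cyclopamine arrays, -0.07, -0.51, 0.49, 1.27 and 0.05 with SANT-2, -0.21, -0.69, -0.07, 0.72 and -0.55 with GANT-61, and -0.23, -0.80, 0.78, 0.54 and -0.29 with ethanol. The ranges of all 4 groups overlapped. The pattern was not particular to the fast genes. The mean of the erythroid markers described below was also lowest on replicate 2 and highest on replicate 4 in all 4 groups. That of the neuronal markers was highest on replicate 4 in all 4 groups, and that of the epidermal markers in none. For the genes of calcium handling and energy supply the mean was lowest on replicate 2 in all 4 groups.

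Slide and replicate number were partly shared, since all 5 same-numbered pairs of cyclopamine and ethanol, and 3 or 4 pairs in the other comparisons, shared a slide. Of the within-group sum of squares, replicate number (4 terms) took a median of 80.3% in the fast genes and slide (3 terms) 47.3%, against 63.6% and 62.3% in all tested genes. Replicate number took more than slide in 9 of the 10 fast genes and in 51.2% of all genes. For actn2b the shares were 88.9% and 63.2%, and for mybpc3 80.4% and 51.9%. What the replicates differed in was not tested.

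Markers of other tissues were set beside the members. As the mean deviation from ethanol, the 5 epidermal genes lay between 0.07 and 0.58 on the cyclopamine arrays and between -0.24 and 0.51 on the ethanol arrays. The 5 neuronal genes lay between -0.43 and 0.43 with cyclopamine and between -0.28 and 0.38 with ethanol, and the 4 erythroid genes between -0.30 and 0.64 with cyclopamine and between -0.36 and 0.31 with ethanol. Of these 14 genes 0 passed under cyclopamine in limma's test.

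Among genes of the myofibre that are no family members, 6 of 24 other sarcomere genes fell under cyclopamine and 0 rose, with a median change of -0.44. They included the actin gene actc2 at -2.72 ± 0.28, the LIM protein gene fhl1a at -3.15 ± 0.33, myoz2b, a Z-disc calcineurin-binding protein, at -1.41 ± 0.22 and xirp1, an actin-binding protein of muscle attachment sites, at -0.80 ± 0.13 (SE; limma adjusted p between 8.83e-06 and 0.00216). Of all tested genes 0.875% passed in that fit. With slide and with replicate number as a block 7 and 9 of the 24 fell, where 2.19% and 2.27% of all tested genes passed. Of 23 genes of calcium handling and energy supply 0 passed, with a median of -0.29 and a lowest value of -2.34. The 2 brightest of them were the calcium pump gene atp2a1 at -0.22 ± 0.43 and the aldolase gene aldoab at -0.12 ± 0.30 (SE). The lowest was pvalb4, a parvalbumin that buffers calcium, named after its value was seen, at -2.34 ± 0.77 (SE; limma adjusted p = 0.354), and it passed with slide and with replicate number as a block (limma adjusted p = 0.0359 and 0.000153). Of 6 genes for chaperones and modifiers of myosin 0 passed and all 6 lay below 0, as did 4899 of the 11433 tested genes. The myosin chaperone genes unc45b and hsp90aa1.1 were at -0.49 ± 0.17 and -0.50 ± 0.21 (SE). unc45b passed with slide and with replicate number as a block (limma adjusted p = 0.00552 and 0.0193), and hsp90aa1.1 with replicate number (limma adjusted p = 0.0476).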

How the data were processed

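Per the labels' protocols, Trizol RNA of whole embryos was labelled with Cy3 for 1-colour Agilent arrays. Per the file headers, Feature Extraction 10.1.1.1 made the deposited files, whose processed Cy3 intensity per spot is background-subtracted. The authors also deposited normalized log2 values, used as an alternative only. Here intensities were taken to log2, outlier spots were set aside, the 75th percentile of non-control spots was subtracted per array, spots were averaged per probe, and the brightest probe per gene was kept. The files name probes by accession, and symbols came from RefSeq accessions of assembly GRCz12tu, used for names and neighbours only, with 9185 of 14694 probes matched. Probe specificity among similar paralogs was not checked.

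All 20 arrays entered 1 model with a mean per group (limma 3.58.1, R 4.3.3), and two-sided p-values were adjusted by the Benjamini-Hochberg method over 11433 genes in each of 6 comparisons. The fits without a block and with slide as a block were run on simulated data for cyclopamine against ethanol. The simulated arrays had slide effects but no replicate effect, and noise independent between genes. The replicate block was not tested in this way. Alternatives were other scalings, filters and background corrections, slide or replicate number as a block, array weights, the compared groups alone, a trended robust spread, the mean of all probes, and leaving out arrays. Pairing by replicate number was taken to hold where the deviations of every same-numbered pair of arrays correlated above 0.1. The lowest correlation was 0.46 (cyclopamine, ethanol), 0.26 (cyclopamine, SANT-2), 0.21 (cyclopamine, GANT-61) and 0.14 (SANT-2, GANT-61), which met it, and -0.01 and -0.04 for SANT-2 and GANT-61 with ethanol, which did not. Same-numbered arrays on different slides correlated at -0.04 to 0.26, and those on 1 slide at 0.46 to 0.82. The rule therefore cannot tell a shared replicate number from a shared slide. The replicate block took 1 effect per number over all 20 arrays. Every comparison with it thus also drew on the pairs of groups that did not meet the rule. The labels do not say that a number marks a shared batch.

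Members, gene lists and tests were chosen with earlier results of these data known. Array-by-array values are given for members that passed in any comparison or against ethanol with a block, and for the member with the smallest unadjusted p per family and compound. myh6, tnnt3b, myl4 and pvalb4 were added after their values were seen. From each other list, up to 4 genes with the smallest adjusted p under cyclopamine, or the 2 brightest where none passed, are named.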

Additional observations from a re-analysis of the deposited data

Results flagged for a closer look

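On 2 of 124 groups of 5 arrays examined, 1 array stood apart from the other 4, where chance alone marks about 1 in 20. The signal of actn2b on cyclopamine replicate 3 was -3.21 on the log2 scale, and the nearest of the other cyclopamine arrays was at -4.46. That array lies on slide 2, the dimmest. Replicate 3 was the highest actn2b array in every group, at -1.75 with ethanol, -1.59 with SANT-2 and -1.79 with GANT-61. The GANT-61 one lies on slide 3, and SANT-2 2 and GANT-61 2, on slide 2, were at -2.47 and -2.63. Without cyclopamine replicate 3 the change of actn2b against ethanol was -1.89 and passed (limma adjusted p = 0.00866). tnni4a on GANT-61 replicate 1 was at -8.55, and the nearest GANT-61 array was at -5.27. All 6 arrays of slide 1 were low for tnni4a: GANT-61 1 at -8.55, SANT-2 1 at -8.85, cyclopamine 1 and 2 at -8.22 and -7.41, and ethanol 1 and 2 at -6.98 and -8.16, against -5.99 to -4.50 on the other slides. Slide took 90.5% of its within-group sum of squares, and it was well above background on 11 of the 20 arrays. It met the rule for testing only through GANT-61, with 4 such arrays.

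The response of actn2b differed between compounds by a test of the difference itself, at -1.97 between cyclopamine and SANT-2 and at -1.68 between cyclopamine and GANT-61. This was not particular to actn2b: all 6 left-out slow genes were lower with cyclopamine in the same tests, with medians of -2.97 and -2.71. The cause of the 4 flagged results was not tested.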

How the results depend on the processing

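Counts of members that passed in limma's test, out of 31, depended on the setting in 5 of the 6 comparisons. For cyclopamine against ethanol (0 in the reported fit) the count was 1, actn2b, with quantile normalization, median centring, the authors' deposited values, slide as a block, array weights and without slide 2, and 2 with replicate block, actn2b and mybpc3. For GANT-61 against ethanol (0) it was 1 with array weights, tnni1b at -0.55. For cyclopamine against SANT-2 (1) it was 0 with the background modelled from negative control spots and with only the 2 groups compared, 2 with slide as a block, array weights and without slide 2, and 3 with replicate block. For cyclopamine against GANT-61 (1) it was 0 with the background from negative controls and with only the 2 groups compared, 2 without slide 2, 3 with array weights and 4 with replicate block. For SANT-2 against GANT-61 (0) it was 1 with replicate block, myh6. For SANT-2 against ethanol it was 0 in every setting. For settings other than the reported fit and the slide or replicate block, the share of all tested genes that passed is not given here.

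Leaving out 1 array at a time gave 0 to 1 member for cyclopamine against ethanol (1 without ethanol 5, cyclopamine 3, SANT-2 3 or GANT-61 3), 1 to 2 against SANT-2 (2 without cyclopamine 3), 0 to 1 against GANT-61, and 0 in the other comparisons. The change of actn2b kept its sign in all 33 settings and ran between -1.89 and -0.91 against ethanol. The settings from negative control spots and without slide 2 were chosen after seeing the data. Plain normexp left almost no range between dim and median spots on cyclopamine 1 and 3. The 5th percentiles of its corrected signals were 5939 and 5238 there, and the medians 5994 and 5249. On ethanol 1 the 5th percentile was 177, against 65 to 73 on the remaining arrays. Plain normexp was therefore not among the settings, and the mean signal planned for it was not used here. Among the named members, no called change reversed. Dim probes limit tnni1d, tnni2a.1 and tnni4a, and the cause of the differences between settings was not tested.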
